A study of Homo sapiens with 12 samples.

Results

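The set described here holds 9 genes: 6 antiviral ADP-ribosylation genes (PARP9, PARP10, PARP12, PARP14, DTX3L and ZC3HAV1) and 3 genes of the PML nuclear body (PML, SP100 and SP110). They were chosen by name, and all 9 were found among the 60609 annotated genes and among the 17185 genes that passed the filter on low values, since each had a TPM of 1 or more in all 12 libraries. TPM, which scales the transcripts of each library to the same total, is a level already divided by transcript length. The established human salivary line NS-SV-AC was used, and polyadenylated RNA was sequenced in 6 groups of 2 replicates. Cells received DMSO (the solvent control), 2-CM (2'-C-methyladenosine, a nucleoside analogue) or RES (resveratrol, a plant polyphenol). Dosing began 24 h ahead of transfection and was repeated with it, at 20 µM for 2-CM and RES if the unit in the labels is read as micromolar, and at the same volume for DMSO. Within each compound, cells were transfected for 14 h with depc, the control, or with poly I:C. No label gives an untreated group, a second cell line or separate cultures for the replicates, so p-values measure the spread between these libraries, which may be technical.

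Poly I:C is a synthetic double-stranded RNA that imitates viral RNA. Cells sense it and secrete interferon, which drives a transcription factor complex that contains IRF9 on to short promoter sequences called ISRE. PARP proteins transfer ADP-ribose to other proteins, and several PARPs that add single units, together with ZC3HAV1 (the zinc-finger antiviral protein ZAP), belong to the interferon-induced genes. PML builds nuclear bodies that hold Sp100 family proteins and silence the genomes of many DNA viruses, and its own gene is interferon-induced too.

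Libraries held 3.72 to 6.002 aligned gigabases, and 13438 to 16554 genes reached a TPM of 1. The coverage of annotated transcripts alone gave 31.2 to 49.4 M (mega) estimated reads. Replicates lay far apart in 3 groups: 3654 genes differed by at least 1 on the log2(TPM + 1) scale between the DMSO poly I:C replicates, 4951 between the RES depc replicates and 2766 between the RES poly I:C replicates, against 246 to 434 in the other groups. Of 6 salivary acinar markers, AQP5 and PIP were at 0 in every library and AMY1A and CHRM3 averaged under 1 TPM, while SLC12A2 stood at 1.30 to 8.11 TPM and BHLHA15 at 0.507 to 2.69 TPM. The epithelial keratin KRT8 stood at 630 to 1958 TPM, whereas KRT5 was at 0 and CDH1 and EPCAM averaged under 1 TPM. Of 4 leukocyte markers, PTPRC and CD3E were at 0 in every library. Sums over the epithelial and fibroblast lists were mostly lower with poly I:C, though the ranges overlapped. The 5 epithelial markers, mostly keratins, gave 1682 to 3530 TPM with depc and 1098 to 1733 TPM with poly I:C. The 4 fibroblast markers gave 51.6 to 104.1 and 23.5 to 59.6 TPM, nearly all of it COL1A1 and DCN. COL1A1 fell by 1.39 averaged over the compounds (limma adjusted p = 0.00012), and DCN rose by 1.28 (adjusted p = 0.0225). The acinar sums (4.02 to 8.96 TPM with depc, 1.90 to 8.86 with poly I:C) and leukocyte sums (8.49 to 16.5 and 7.41 to 14.0) overlapped over most of their ranges. The endothelial sums also overlapped, at 0.116 to 0.258 and 0 to 0.147 TPM. The part of these markers in the results was not tested. In bulk RNA a change in the share of responding cells and a change in RNA per cell cannot be told apart.

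Levels of the set were higher with poly I:C. Summed over the 9 genes, TPM was 99.8 to 158 in the 6 depc libraries and 248 to 576 in the 6 poly I:C libraries. For 8 of the 9 genes, all but PARP10, every poly I:C library stood above every depc library, a separation seen in 1.33% of all genes tested. Within a compound, both poly I:C libraries stood above both depc libraries for 9 of 9 genes under DMSO (11.5% of all genes), 9 of 9 under 2-CM (62.6%) and 8 of 9 under RES (6.05%). The limma test called a gene at a Benjamini-Hochberg adjusted p under 0.05 over all genes tested. Averaged over the compounds, it called 8 of the 9 higher with poly I:C, against 13.4% of all genes, and the median difference was 1.93 on the log2(TPM + 1) scale for the set and 0.16 for all genes tested. Within compounds it called 2 of 9 higher under DMSO (0.797% of all genes), 9 of 9 under 2-CM (37.5%) and 0 of 9 under RES (0.198%). The genes called under DMSO were PARP12 and SP110. Under RES 7 of the 9 had an unadjusted p under 0.05 in limma (14% of all genes at that p), and 2 of the 9 were called higher in the authors' deposited table (0.266% of its genes).

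**Figure D1:**
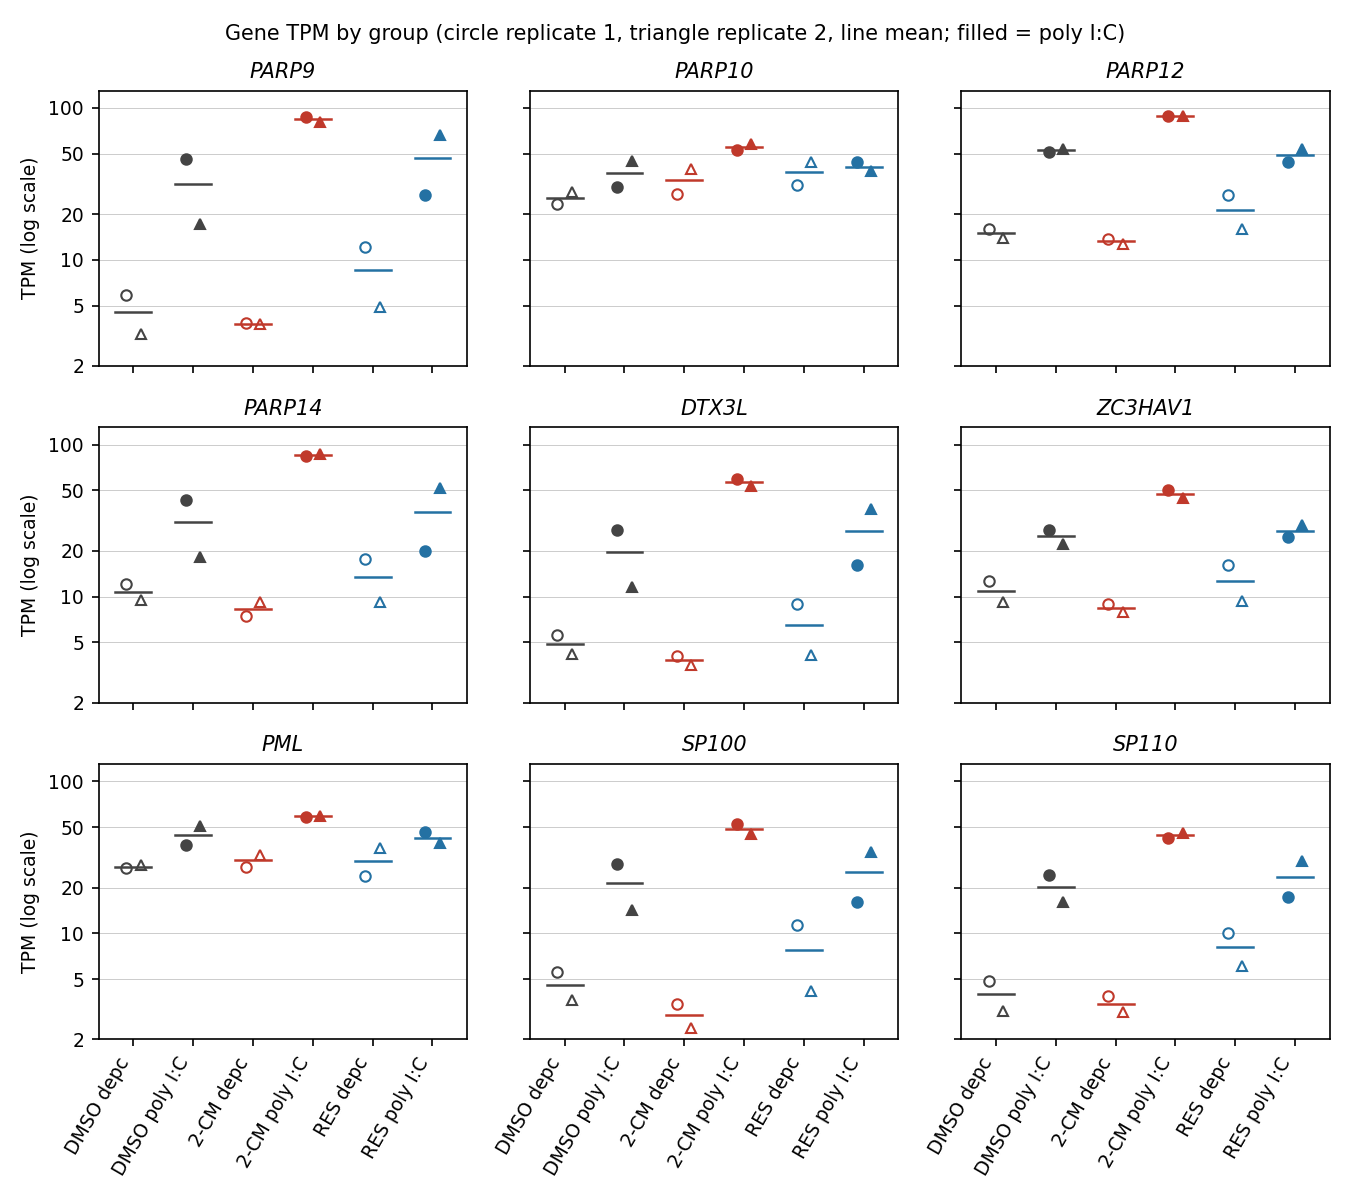
TPM of each gene (log axis) in the 6 groups. Circles are replicate 1, triangles replicate 2, lines group means, and filled symbols poly I:C. The poly I:C symbols lie above the depc symbols of the same compound in every panel except PARP10 under RES, where the replicates overlap.

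Each library was left out in turn, which left 1 replicate in its group. A call lost in such a fit may reflect the lost replication, so sizes are given here. Averaged over the compounds, the log2 difference stayed positive for all 9 genes. It ran from 0.37 to 0.56 for PARP10 and from 2.73 to 3.19 for PARP9. Under DMSO it ran from 1.67 to 1.84 for PARP12 and from 1.81 to 2.36 for SP110. Under 2-CM it ran from 2.61 to 2.70 for PARP12 and from 3.22 to 3.49 for SP110. Sizes of other genes moved as well. With a library left out, the log2 difference under DMSO ran from 0.72 to 1.92 for PARP14 and from 1.10 to 2.29 for DTX3L. For PARP9 it ran from 1.75 to 3.12 and for PARP10 from 0.23 to 0.78 under DMSO. Under RES it ran from 0.61 to 1.93 for PARP14, from 1.00 to 2.25 for SP100 and from 0.71 to 1.44 for ZC3HAV1. For PARP9 it ran from 1.65 to 2.93 and for PML from 0.23 to 0.80 under RES.

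PARP9 had the largest average difference of the set, and its partner DTX3L is encoded beside it. PARP9 carries macrodomains that bind ADP-ribose and lacks strong transferase activity of its own, and DTX3L is the ubiquitin ligase that it binds. The genes lie head to head on chromosome 3 (GRCh38), PARP9 on the minus strand at 122527924-122564577 and DTX3L on the plus strand at 122564338-122575203, and share 139 exonic bases. The file headers record no strand option for the quantification, so reads in those bases may be divided between them. The promoter sequences are shown because the pair shares a single ISRE core there, read on opposite strands. They are from RefSeq (GRCh38.p14), run from 50 bases before to 10 bases from the start, and have the ISRE core in capitals. They cover chr3:122564291-122564350 for PARP9 (minus strand) and chr3:122564288-122564347 for DTX3L (plus strand).
PARP9: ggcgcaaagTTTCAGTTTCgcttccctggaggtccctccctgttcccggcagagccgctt
DTX3L: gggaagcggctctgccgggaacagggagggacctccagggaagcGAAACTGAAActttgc
Both capitalised stretches are the bases 122564332 to 122564341 of chromosome 3. The match begins 41 bases before the RefSeq start of PARP9 used here and 6 bases before that of DTX3L. This PARP9 start lies inside the gene span given above, and the promoter at another RefSeq start of PARP9 held no ISRE core.

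With depc, PARP9 stood at 5.88 and 3.23 TPM under DMSO, 3.84 and 3.76 under 2-CM, and 12.2 and 4.87 under RES (replicates 1 and 2). With poly I:C it stood at 46.0 and 17.2 TPM under DMSO, 87.7 and 80.1 under 2-CM, and 26.7 and 66.1 under RES. The lowest poly I:C library was thus above the highest depc library, but the poly I:C replicates of DMSO and of RES were far apart. Mean TPM was higher 6.93-fold with DMSO, 22.1-fold with 2-CM and 5.44-fold with RES. On the log2(TPM + 1) scale the difference was 2.44 ± 0.58 (SE) under DMSO (limma adjusted p = 0.0545), 4.14 ± 0.58 under 2-CM (adjusted p = 0.0118) and 2.29 ± 0.58 under RES (adjusted p = 0.152). PARP9 was therefore called under 2-CM, and averaged over the compounds at 2.96 ± 0.33 (adjusted p = 0.00119).

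DTX3L was lower than PARP9 in every poly I:C library. Its depc values were 5.56 and 4.21 TPM under DMSO, 4.04 and 3.55 under 2-CM, and 8.93 and 4.12 under RES. Its poly I:C values were 27.6 and 11.5 TPM under DMSO, 59.7 and 53.6 under 2-CM, and 16.2 and 37.7 under RES. No depc library reached a poly I:C library. In limma it differed by 1.69 ± 0.50 under DMSO (limma adjusted p = 0.098), 3.59 ± 0.50 under 2-CM (adjusted p = 0.0118) and 1.85 ± 0.50 under RES (adjusted p = 0.165).

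The balance of the pair differed between the transfections. The ratio of DTX3L to PARP9 TPM was 0.946 and 1.30 in the DMSO depc libraries, 1.05 and 0.944 in the 2-CM depc libraries, and 0.732 and 0.847 in the RES depc libraries. With poly I:C it was 0.600 and 0.670 under DMSO, 0.681 and 0.669 under 2-CM, and 0.605 and 0.570 under RES. All 6 poly I:C libraries lay below all 6 depc libraries. The mean log2 ratio fell by 0.598 with poly I:C (two-sided exact permutation test within compounds, p = 0.00926, the smallest that this design allows). With any library left out it fell by 0.521 to 0.675. This ratio was chosen after its values had been seen, so its p is a description.

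**Figure D2:**
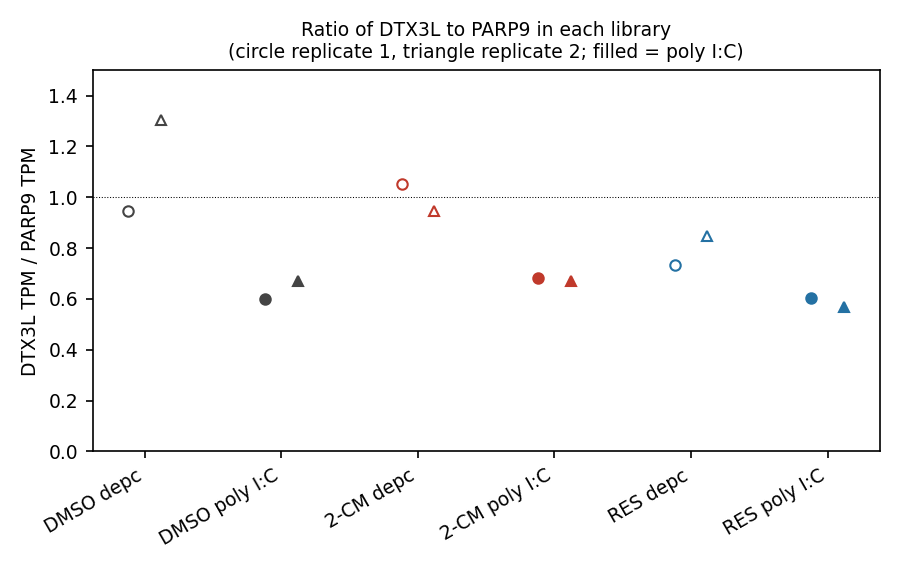
Ratio of DTX3L to PARP9 TPM in each of the 12 libraries, by group. The 6 filled poly I:C symbols lie between 0.570 and 0.681, below the 6 open depc symbols, which lie between 0.732 and 1.30; the dotted line marks equal TPM.

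PARP14, PARP12 and PARP10 transfer single ADP-ribose units. PARP14 has macrodomains, and PARP12 has zinc fingers of the kind found in ZC3HAV1. PARP14 lies beyond DTX3L, at 122680839-122730840 on the plus strand of chromosome 3, and PARP12 on the minus strand of chromosome 7 at 140023744-140063721. Their promoters are shown because each holds 1 ISRE core close to the start; the sequences cover chr3:122680789-122680848 (plus strand) and chr7:140062942-140063001 (minus strand).
PARP14: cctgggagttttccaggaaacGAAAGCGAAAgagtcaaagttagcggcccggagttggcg
PARP12: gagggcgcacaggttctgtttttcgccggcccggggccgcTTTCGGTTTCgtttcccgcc
The core begins 29 bases before the RefSeq start of PARP14 and 10 bases before that of PARP12. The RefSeq start of PARP12 lies inside the gene span given above.

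PARP12 was called under both DMSO and 2-CM. With depc it stood at 15.8 and 14.0 TPM under DMSO, 13.6 and 12.8 under 2-CM, and 26.5 and 15.9 under RES. Its poly I:C values were 51.3 and 53.6 TPM under DMSO, 88.2 and 88.8 under 2-CM, and 44.02 and 53.8 under RES. The poly I:C replicates of each compound were close and no library overlapped the depc range. The log2 difference was 1.75 ± 0.24 under DMSO (limma adjusted p = 0.0116), 2.66 ± 0.24 under 2-CM (adjusted p = 0.00135) and 1.202 ± 0.24 under RES (adjusted p = 0.0894). Averaged over the compounds it was 1.87 ± 0.14 (adjusted p = 0.000151).

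PARP14 varied more between replicates. Its depc values were 12.04 and 9.44 TPM under DMSO, 7.49 and 9.14 under 2-CM, and 17.7 and 9.18 under RES. Its poly I:C values were 43.3 and 18.2 TPM under DMSO, 84.1 and 86.1 under 2-CM, and 20.0 and 51.5 under RES. The groups did not overlap, though DMSO poly I:C replicate 2 at 18.2 TPM was only just above RES depc replicate 1 at 17.7 TPM. The log2 difference was 1.32 ± 0.51 under DMSO (limma adjusted p = 0.192), 3.21 ± 0.51 under 2-CM (adjusted p = 0.0181) and 1.27 ± 0.51 under RES (adjusted p = 0.317).

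In TPM as deposited, PARP10 differed least between transfections, whereas after the GC correction described with the replicate distances PML differed less averaged over the compounds (0.88 against 0.97). It stood at 23.2 and 27.9 TPM under DMSO, 27.1 and 39.5 under 2-CM, and 31.2 and 44.3 under RES with depc. With poly I:C it stood at 30.0 and 44.6 TPM under DMSO, 53.1 and 58.2 under 2-CM, and 44.01 and 38.1 under RES. The transfections overlapped under RES and across compounds. The log2 difference was 0.51 ± 0.28 under DMSO (limma adjusted p = 0.368), 0.75 ± 0.28 under 2-CM (adjusted p = 0.04996) and 0.14 ± 0.28 under RES (adjusted p = 0.853), and averaged over the compounds it missed the threshold at 0.46 ± 0.16 (adjusted p = 0.0542). The call under 2-CM did not hold under other scalings of the libraries, where its sign turned with median-of-ratios scaling (-0.08), and in the authors' deposited table PARP10 was not called under 2-CM (log2 fold change -0.17). PARP10, on the minus strand of chromosome 8 at 143977153-144012772, shares 324 exonic bases with GRINA on the opposite strand, which averaged 208 TPM, so its level is uncertain if strand was not used.

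ZC3HAV1 encodes ZAP, which binds CpG-rich viral RNA and lacks transferase activity. It lies on the minus strand of chromosome 7 at 139043515-139109720. With depc it stood at 12.6 and 9.24 TPM under DMSO, 8.97 and 7.93 under 2-CM, and 16.1 and 9.30 under RES. Its poly I:C values were 27.6 and 22.1 TPM under DMSO, 49.9 and 44.4 under 2-CM, and 24.6 and 29.4 under RES. Every poly I:C library was above every depc library. For ZC3HAV1 the log2 difference was 1.12 ± 0.28 under DMSO (limma adjusted p = 0.063), 2.35 ± 0.28 under 2-CM (adjusted p = 0.00543) and 1.07 ± 0.28 under RES (adjusted p = 0.155).

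ZAP is made in a long form, which ends in a PARP-like domain, and a short form without it. The annotated long transcript ENST00000242351.10 encodes 902 residues in 13 exons and the short transcript ENST00000471652.1 encodes 699 residues in 9 exons. The long transcript took 73.4% and 70.2% of ZC3HAV1 TPM in DMSO depc, 52.5% and 63.5% in 2-CM depc, and 66.9% and 63.4% in RES depc. In poly I:C libraries it took 65.6% and 39.5% under DMSO, 59.7% and 62.0% under 2-CM, and 40.2% and 64.8% under RES. Its share overlapped between transfections (exact permutation p = 0.204). The short transcript took 14.4% and 18.3% in DMSO depc, 25.3% and 12.03% in 2-CM depc, and 18.0% and 27.9% in RES depc. Its poly I:C shares were 22.1% and 42.4% under DMSO, 29.2% and 24.9% under 2-CM, and 44.8% and 26.6% under RES. The mean was 12.3 percentage points higher with poly I:C (exact permutation p = 0.037, adjusted p = 0.169 over 32 transcripts), so the share was not called, and the groups overlapped. This transcript was singled out after its values had been seen.

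**Figure D3:**
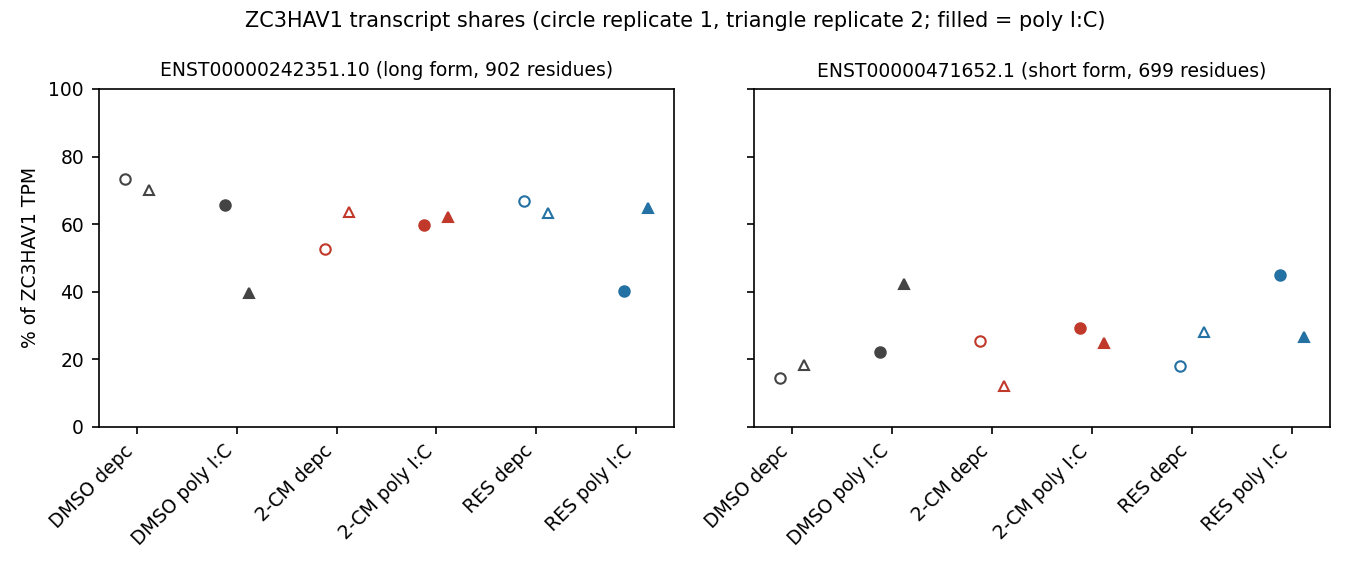
Share of ZC3HAV1 TPM (percent) on the long transcript (left) and the short transcript (right) in each library, by group. The short transcript averaged 19.3% with depc and 31.7% with poly I:C, with overlapping ranges of 12.03% to 27.9% and 22.1% to 44.8%.

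Over all 9 genes, 32 of 111 annotated transcripts were abundant enough to test, and 0 were called (exact permutation test, 7 with an unadjusted p under 0.05). In this design the exact permutation test allows no p under 0.00926, so over 32 transcripts a lone transcript at that p could not be called. The lack of calls therefore does not show that shares were unchanged. That lowest p (adjusted p = 0.169) belonged to the SP100 transcript ENST00000409112.5. Its share of SP100 TPM was 0% to 2.28% with depc and 5.50% to 45.9% with poly I:C. The SP110 transcript ENST00000258382.9 averaged 83.4% of SP110 TPM with depc and 57.7% with poly I:C (exact permutation p = 0.0185, adjusted p = 0.169). Both were named after their values had been seen, and replicates of a group differed widely: the SP100 transcript took 39.2% and 5.50% in the DMSO poly I:C replicates.

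SP100 is a constant component of PML bodies that restrains viral gene expression, and SP110 is a related chromatin reader whose inherited loss causes an immunodeficiency with liver disease. Both lie on chromosome 2, SP110 on the minus strand at 230167293-230225729 and SP100 on the plus strand at 230415942-230545606. With depc, SP100 stood at 5.56 and 3.61 TPM under DMSO, 3.43 and 2.39 under 2-CM, and 11.3 and 4.16 under RES. The poly I:C values were 28.5 and 14.2 TPM under DMSO, 52.1 and 44.9 under 2-CM, and 16.1 and 34.3 under RES. The groups did not overlap, and mean TPM was higher 4.65-fold with DMSO, 16.7-fold with 2-CM and 3.26-fold with RES. The log2 difference was 1.94 ± 0.51 under DMSO (limma adjusted p = 0.074), 3.67 ± 0.51 under 2-CM (adjusted p = 0.0118) and 1.62 ± 0.51 under RES (adjusted p = 0.212).

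SP110 rose under DMSO as well as under 2-CM. Its depc values were 4.82 and 3.09 TPM under DMSO, 3.85 and 3.02 under 2-CM, and 10.1 and 6.06 under RES. Its poly I:C values were 24.1 and 16.1 TPM under DMSO, 42.3 and 45.9 under 2-CM, and 17.2 and 29.7 under RES. No poly I:C library fell into the depc range. For SP110 the log2 difference was 2.09 ± 0.35 under DMSO (limma adjusted p = 0.0232), 3.35 ± 0.35 under 2-CM (adjusted p = 0.00309) and 1.42 ± 0.35 under RES (adjusted p = 0.149).

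PML, the scaffold of the bodies, lies on the plus strand of chromosome 15 at 73994673-74047827 and had the highest depc level of the set beside PARP10. With depc it stood at 26.9 and 28.0 TPM under DMSO, 27.5 and 32.8 under 2-CM, and 23.9 and 36.2 under RES. In poly I:C libraries it stood at 38.3 and 50.6 TPM under DMSO, 58.7 and 59.1 under 2-CM, and 46.2 and 39.0 under RES. The groups did not overlap, but the highest depc and lowest poly I:C libraries were only 36.2 and 38.3 TPM. In log2 terms PML differed by 0.66 ± 0.24 under DMSO (limma adjusted p = 0.161), 0.95 ± 0.24 under 2-CM (adjusted p = 0.0277) and 0.51 ± 0.24 under RES (adjusted p = 0.378). Averaged over the compounds PML rose by 0.71 ± 0.14 (adjusted p = 0.00781), while in the authors' deposited table it was not called under 2-CM (log2 fold change 0.17). The limma call of PML under 2-CM was lost with upper-quartile scaling (0.33, adjusted p = 0.485), with median-of-ratios scaling (0.12, adjusted p = 0.833) and with no filter (adjusted p = 0.0623), and the averaged call with both scalings (adjusted p = 0.0735 and 0.142).

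The order of levels was compared within each compound. In the DMSO depc libraries PML (26.9 and 28.0 TPM) and PARP10 (23.2 and 27.9) overlapped at the top, PARP12 came next, PARP14 and ZC3HAV1 overlapped, and PARP9, DTX3L, SP100 and SP110 lay together between 3.09 and 5.88 TPM. In the DMSO poly I:C libraries PARP12 led in both replicates, followed by PARP9 (46.0 TPM) and PARP14 (43.3) in replicate 1 and by PML (50.6) and PARP10 (44.6) in replicate 2, so that the order after PARP12 was not the same in both. In the 2-CM depc libraries PARP10 (27.1 and 39.5 TPM) and PML (27.5 and 32.8) overlapped at the top, PARP12 came next, and the other 6 genes lay between 2.39 and 9.14 TPM. In the 2-CM poly I:C libraries PARP12, PARP14 and PARP9 led at 80.1 to 88.8 TPM. PML, PARP10 and DTX3L followed at 53.1 to 59.7 TPM, and SP100, ZC3HAV1 and SP110 at 42.3 to 52.1 TPM. Under RES, PARP10 and PML also overlapped at the top with depc, PARP12 in replicate 1 lying within the range of PML. With poly I:C, RES replicate 1 had PML (46.2 TPM), PARP12 (44.02) and PARP10 (44.01) on top and replicate 2 had PARP9 (66.1), PARP12 (53.8) and PARP14 (51.5).

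**Figure D4:**
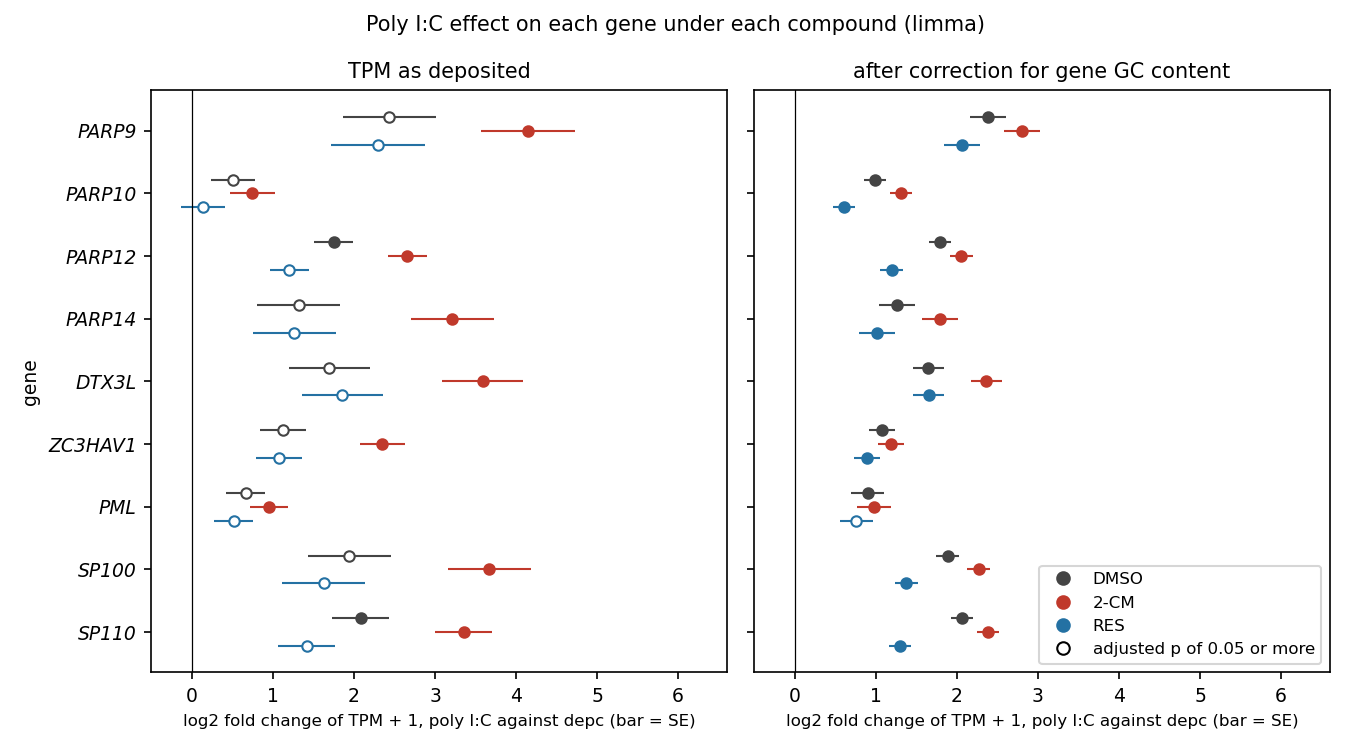
Difference of log2(TPM + 1) between poly I:C and depc for each gene under DMSO, 2-CM and RES, with standard errors from limma, for TPM as deposited (left) and after a correction for gene GC content (right). Filled symbols were called; 2, 9 and 0 of the 9 genes were called on the left and 9, 9 and 8 on the right.

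The replicate distances of these genes ran with their GC content in 4 groups and less so in the 2-CM groups. Over the 9 genes the Spearman correlation of GC content with the difference of replicate 1 from replicate 2 was -0.67 in DMSO depc, -0.90 in DMSO poly I:C, -0.87 in RES depc and 0.88 in RES poly I:C, against -0.30 in 2-CM depc and -0.50 in 2-CM poly I:C. Exonic GC ran from 42.1% in PARP14 and 42.3% in SP100 to 54.6% in PML and 64.7% in PARP10. Between the DMSO poly I:C replicates, PARP9 (42.8% GC) was higher in replicate 1 by 1.37 on the log2(TPM + 1) scale, PARP12 (49.0% GC) differed by -0.06 and PARP10 by -0.56. In RES poly I:C the order turned round, with PARP9 at -1.28, PARP12 at -0.28 and PARP10 at 0.20. Over all genes tested, the same correlation ran from -0.78 to -0.43 in 5 groups and was 0.77 in RES poly I:C, as a description across genes that share libraries. The poly I:C difference itself also ran with GC over all genes, at -0.36 under DMSO, -0.80 under 2-CM and -0.62 under RES.

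**Figure D5:**
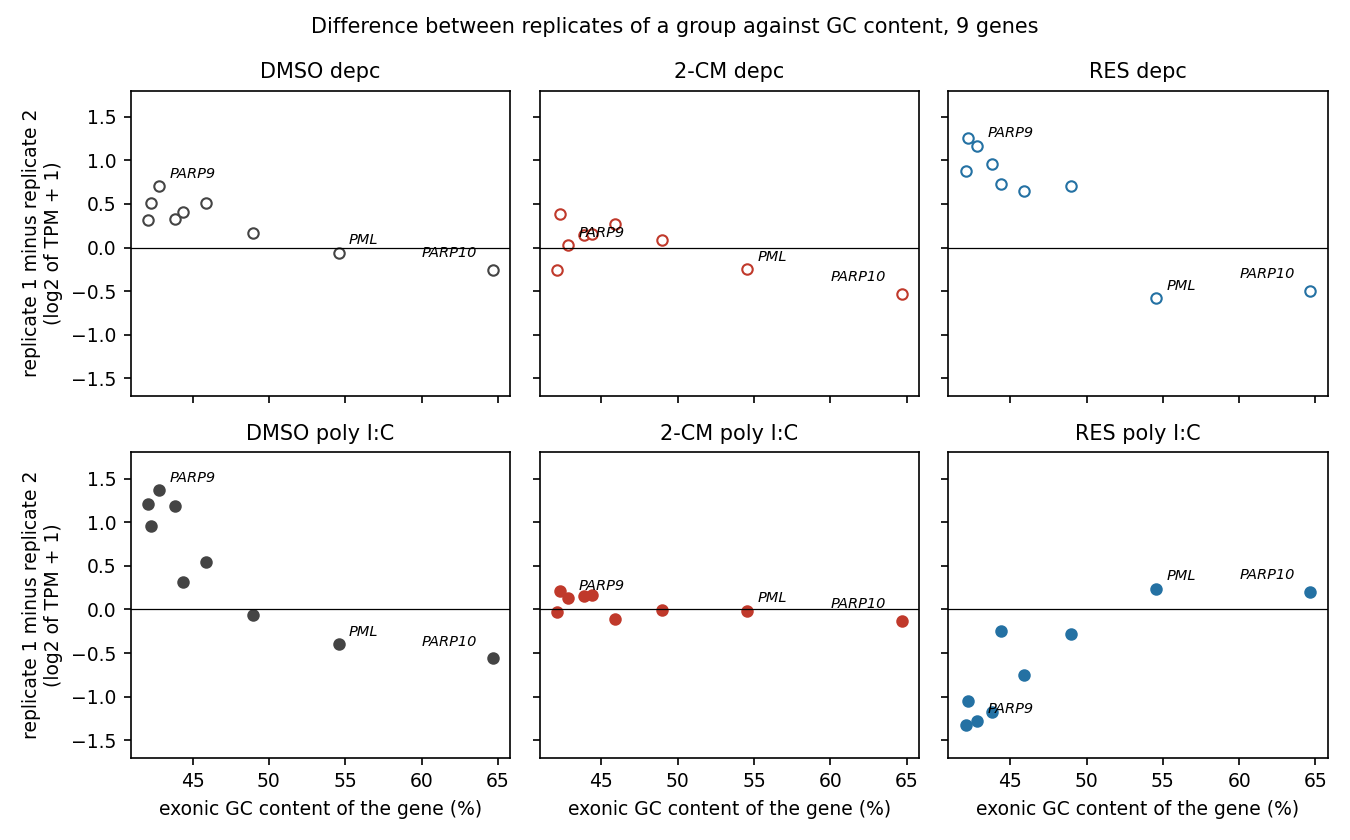
Difference of log2(TPM + 1) between replicate 1 and replicate 2 of each group against exonic GC content (percent) for the 9 genes. The genes of low GC lie above 0 and PML and PARP10 below it in DMSO depc, DMSO poly I:C and RES depc, the sides are exchanged in RES poly I:C, and the 2-CM poly I:C values lie between -0.13 and 0.21.

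After a smooth curve of log2(TPM + 1) on GC content had been subtracted in each library, limma called 9 of 9 genes higher under DMSO (6.48% of all genes), 9 of 9 under 2-CM (14.5%) and 8 of 9 under RES (1.28%), and 9 of 9 averaged over the compounds (17.3%). The gene not called under RES was PML, at 0.76 ± 0.20 (adjusted p = 0.0825). The curve took no account of the groups, so it also removed any poly I:C difference that ran with GC over all genes. How much of what it removed was technical was not tested. The corrected difference under 2-CM was smaller for genes of low GC: it was 2.80 ± 0.22 for PARP9 in place of 4.14 and 1.79 ± 0.22 for PARP14 in place of 3.21. For PARP10 it was larger, at 1.31 ± 0.14 in place of 0.75. Under DMSO the low-GC genes hardly moved, with PARP9 at 2.38 ± 0.22 in place of 2.44, and their standard errors shrank.

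The compounds were compared by how far each one's poly I:C response departed from the response under DMSO. The 2-CM difference was positive for 9 of 9 genes, with a median of 1.27 against 0.68 for all genes tested, and ranged from 0.24 for PARP10 to 1.89 for DTX3L. The limma test called 0 of the 9 (0.0116% of all genes), with 6 at an unadjusted p under 0.05 (29.7% of all genes at that p) and adjusted p-values from 0.161 to 0.667. For DTX3L the 95% interval was 0.29 to 3.50, for PARP9 -0.16 to 3.57 and for ZC3HAV1 0.33 to 2.12. Scaling moved this comparison: with median-of-ratios scaling the difference was negative for PARP10, PARP12 and PML. The GC correction also removes any part of this difference that runs with GC. After that correction the difference was positive for 9 of 9 genes, with a median of 0.32 against 0.02 for all genes, and 0 of 9 were called (0.0175% of all genes). It was then 0.72 ± 0.27 for DTX3L (adjusted p = 0.149) and at most 0.53 for the other 8. Within the poly I:C libraries alone, 2-CM against DMSO had a median of 1.12 for the set and 0.59 for all genes, and 0 of 9 were called (0.105% of all genes), with 7 at an unadjusted p under 0.05 (34.2% of all genes at that p). Both 2-CM poly I:C libraries were above both DMSO poly I:C libraries for 9 of 9 genes, which held for 70.4% of all genes. For PARP12, PARP14, DTX3L, ZC3HAV1 and SP100 both 2-CM libraries were also below both DMSO libraries with depc, a combined pattern found in 28.1% of all genes.

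For 2-CM against DMSO with depc, 0 of 9 genes were called in limma (0.0349% of all genes; 0 at an unadjusted p under 0.05). The RES difference in response was not called for any of the 9 genes either (0 of 17185 genes called; 0 of 9 at an unadjusted p under 0.05), with a median of -0.15 against 0.11 for all genes. Its 95% interval was wide, -2.01 to 1.71 for PARP9 and -1.32 to 0.22 for PARP12, so similar responses under RES and DMSO are not shown. For PARP9 the difference turned from -0.15 to 0.54 without DMSO poly I:C replicate 1. For RES against DMSO with depc, limma called 0 of 9 genes (1.03% of all genes; 1 at an unadjusted p under 0.05, beside 14.7% of all genes). That gene was SP110, higher by 0.86 ± 0.35 (adjusted p = 0.296), and it was called after the GC correction at 0.71 ± 0.14 (adjusted p = 0.0124), in a fit that called 11.0% of all genes. With poly I:C, RES against DMSO gave 0 of 9 (0.157% of all genes; 0 at an unadjusted p under 0.05).

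The authors' deposited tables gave 6 of 9 genes higher with poly I:C under DMSO (0.751% of their genes with an adjusted p), 7 under 2-CM (23.0%) and 2 under RES (0.266%). The log2 fold changes in the authors' deposited table under DMSO were 2.86 for PARP9, 2.72 for SP100, 2.56 for SP110 and 2.14 for DTX3L. In the authors' deposited table under 2-CM, SP100 was at 3.36 and DTX3L at 3.06. For 3 genes the authors' deposited tables gave a lower value under 2-CM than under DMSO, against the positive difference in TPM: PARP12 (1.32 and 1.90), PML (0.17 and 0.93) and PARP10 (-0.17 and 0.81). Under RES the authors' deposited table called PARP9, at 2.48 (adjusted p = 0.00123), and DTX3L, at 2.12 (adjusted p = 0.0157).

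Other genes of these pathways were taken from lists. Of 11 other PARP family genes tested, limma called 0 under DMSO (1 at an unadjusted p under 0.05) and 0 under RES (0 at that p), and 6 were higher under 2-CM, where 37.5% of all genes were. These and the following counts are read against the shares of all genes: 0.797% were called higher and 3.28% lower under DMSO, 0.198% higher under RES, 13.4% higher averaged over the compounds, and 49.3% in either direction under 2-CM. PARP16, an enzyme of the endoplasmic reticulum, was the only one of them called averaged over the compounds (13.4% of all genes higher), at 0.85 ± 0.15 (limma adjusted p = 0.00632). TNKS2, a tankyrase, stood at 2.22 ± 0.74 under 2-CM (adjusted p = 0.0384) and -0.30 ± 0.74 under DMSO (adjusted p = 0.902). TIPARP, a target of the aryl hydrocarbon receptor, stood at 2.05 ± 0.72 under 2-CM (adjusted p = 0.0437). The median over the list was 1.33 under 2-CM, beside 0.61 for all genes and 3.21 for the set.

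Enzymes that remove ADP-ribose gave 4 higher and 1 lower call of 8 under 2-CM, near the shares of all genes (37.5% higher, 49.3% in either direction), and 0 calls under DMSO and RES in limma (0 at an unadjusted p under 0.05 in each). ADPRM, OARD1 and NUDT9 were among those higher under 2-CM, at 1.55 ± 0.49, 1.40 ± 0.41 and 1.60 ± 0.56 (limma adjusted p = 0.0341, 0.0314 and 0.0431). MACROD1, a mitochondrial hydrolase, fell under 2-CM by 1.10 ± 0.32 (adjusted p = 0.0308) and averaged over the compounds by 0.71 (adjusted p = 0.0234). Of the 3 deltex relatives of DTX3L tested, limma called none higher with poly I:C under any compound or averaged over them. DTX3 was at 0.32 under DMSO (adjusted p = 0.444), -0.32 under 2-CM (adjusted p = 0.185) and -0.30 under RES (adjusted p = 0.568). DTX4 fell under DMSO by 0.81 ± 0.17 (adjusted p = 0.0396) and averaged over the compounds by 0.59 ± 0.10 (adjusted p = 0.00477). DTX2 fell averaged over the compounds by 0.65 ± 0.14 (adjusted p = 0.0121). In that average 31.2% of all genes were called in either direction.

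ZAP works with TRIM25, a ubiquitin ligase, and with RNA decay enzymes. Of 12 such genes, 1 was higher under DMSO, 8 were higher and 2 lower under 2-CM (37.5% of all genes higher, 49.3% in either direction), and 0 were called under RES in limma (3 at an unadjusted p under 0.05). TRIM25 stood at 27.0 to 51.4 TPM with depc and 80.6 to 131 TPM with poly I:C. Its log2 difference was 1.502 ± 0.20 under DMSO (limma adjusted p = 0.0106), 2.18 ± 0.20 under 2-CM (adjusted p = 0.00139) and 1.07 ± 0.20 under RES (adjusted p = 0.0659). The decapping activator DCP1A and the nuclease cofactor N4BP1 were higher under 2-CM, by 1.78 ± 0.47 and 1.92 ± 0.42 (adjusted p = 0.0281 and 0.027). The helicase DHX30 and the exosome subunit EXOSC5 fell under 2-CM by 0.77 ± 0.21 and 0.97 ± 0.31 (adjusted p = 0.0294 and 0.0363).

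SP140L, a relative of SP100 and SP110, rose under 2-CM by 1.96 ± 0.40 (limma adjusted p = 0.0258), and SP140 stayed below the filter. Of 18 partners and regulators of PML bodies, 12 were higher and 1 lower under 2-CM (37.5% of all genes higher, 49.3% in either direction), 1 was lower under DMSO (3.28% of all genes lower) and 0 were called under RES in limma (2 at an unadjusted p under 0.05). SUMO2, a small modifier that helps to hold the bodies together, rose under 2-CM by 2.07 ± 0.62 (adjusted p = 0.0319), as did MORC3, a body-resident ATPase, by 2.73 ± 0.70 (adjusted p = 0.0279). CABIN1, of the HIRA histone chaperone complex, fell under DMSO by 1.01 ± 0.19 (adjusted p = 0.032) and under 2-CM by 0.62 ± 0.19 (adjusted p = 0.0333). DAXX, the histone chaperone of the bodies, stood at 9.17 to 11.9 TPM with depc and 6.59 to 12.8 TPM with poly I:C.

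Genes of the interferon signal were called under each compound. IRF9 rose from 1.43 to 3.81 TPM with depc to 32.9 to 66.03 TPM with poly I:C and was called under DMSO (4.29 ± 0.25, limma adjusted p = 0.000137), 2-CM (4.35 ± 0.25, adjusted p = 9.48e-05) and RES (3.13 ± 0.25, adjusted p = 0.00171). IFNL1, a type III interferon, stood at 0 to 0.589 TPM with depc and 7.49 to 17.1 TPM with poly I:C. Of 7 such genes, 4 were called higher under DMSO (0.797% of all genes), 7 under 2-CM (37.5%) and 2 under RES (0.198%).

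Across the 12 libraries, 7 of the 9 genes ran closely together: the Pearson correlation of log2(TPM + 1) was 0.99 between PARP9 and DTX3L and also 0.99 between SP100 and SP110. PARP10 ran closest to PML, at 0.87, and at 0.55 with SP100. These describe libraries that share the poly I:C contrast and the GC pattern. Among 10174 other genes with a mean TPM of 5 or more, the closest to the mean of the set were IFIH1, a cytosolic sensor of double-stranded RNA (0.996), IFI16 and XAF1 (both 0.993), and TNFSF10 and TRIM22 (both 0.989). For the other 8 genes of the set, PARP9 left aside, the closest genes were SLC15A3 to PARP10 (0.905) and to PML (0.964), TRIM25 to PARP12 (0.992), SAMD9 to PARP14 (0.992), IFIH1 to DTX3L (0.995), APOL6 to ZC3HAV1 (0.989) and to SP100 (0.995), and XAF1 to SP110 (0.994).

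Promoter sequences were matched for 7 of the 9 genes, not for PARP10 and PML: 10 promoters in all, with 2 each for PARP9, SP100 and SP110. The ISRE core was searched as GAAA, any 2 bases and GAAA, on both strands. It occurred in the 300 bases around the start in 4 of these 10 promoters (1 of the 2 of PARP9, and those of DTX3L, PARP14 and PARP12) and in 1255 of 35116 promoters of that length, or 3.57%. The GAS motif TTCNNNGAA, another interferon-response pattern, occurred in those of PARP14 and ZC3HAV1 and 1 of the 2 of SP110, and in 7.66% of promoters. With these, 5 patterns were searched in all. The core followed by C (0.795% of promoters) occurred in the same promoters of PARP9 and DTX3L, the core followed by G (1.1%) in PARP12 and PARP14, and TTC and GAA with 4 bases between them (6.44%) in ZC3HAV1. The 3 ISRE patterns overlap at the same sites, and all patterns were chosen with the expression results known. A match describes letters, and PARP9 and DTX3L share theirs.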

How the data were processed

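Per the labels' protocols, mRNA libraries from a stranded kit were read as pairs of 101 bases. Per the submitters' processing notes, bcl2fastq 2.20, HISAT2 2.1.0, StringTie, DESeq2 and the build hg38 were used, with no roles given. StringTie 2.0.4 was run on GENCODE 32 without a strand option, per the file headers, and the authors deposited transcript coverage, FPKM and TPM. The authors also deposited 3 tables of log2 fold changes, a test score, p-values and adjusted p-values. Counts were not used here.

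Here, TPM was summed per gene (Python 3.11.15), and limma 3.58.1 (R 4.3.3) with a variance trend fitted 6 group means to log2(TPM + 1) over 12 libraries, with 6 residual degrees of freedom. Genes needed a TPM of 1 in 2 libraries, which left 17185. The 10 contrasts were adjusted by Benjamini-Hochberg separately. Log2 differences on this scale understate changes of low genes. Transcript shares were tested by exact permutation within compounds. Estimated reads limit the precision. The code was tested on simulated data. All 49338 identifiers shared with GENCODE 44 had equal coordinates there. Genes of 7 lists were named by a rule: up to 3 called genes per direction with the largest average difference. The 5 genes most like the set, and the closest to each member, were named by correlation; results for some genes that these rules name are not reported here. Members and lists were chosen with earlier results of these data known. Alternatives were other units, scalings, filters and pseudocounts, a GC correction, a replicate block and left-out libraries.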

Additional observations from a re-analysis of the deposited data

Results flagged for a closer look

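For 5 genes both 2-CM libraries lay below both DMSO libraries with depc and above both DMSO libraries with poly I:C. In limma 2-CM against DMSO was not called for any of the 5, with depc (adjusted p-values from 0.721 to 0.814) or with poly I:C (0.111 to 0.137). This pattern held for 28.1% of all genes tested. On the log2(TPM + 1) scale, the poly I:C response under 2-CM minus that under DMSO was 0.90 for PARP12, 1.89 for PARP14, 1.89 for DTX3L, 1.23 for ZC3HAV1 and 1.73 for SP100. In limma the adjusted p-values of these differences ran from 0.161 to 0.162, so none passed the threshold. After the GC correction they were 0.26, 0.53, 0.72, 0.11 and 0.38 in the same order, also with no call. With depc, 2-CM against DMSO was then 0.11 for PARP14, 0.07 for DTX3L and 0.01 for ZC3HAV1, no longer below DMSO. It stayed below DMSO for PARP12 (-0.04) and SP100 (-0.08). With median-of-ratios scaling 2-CM against DMSO with poly I:C was -0.027 for PARP12.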

How the results depend on the processing

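The count of the 9 genes called higher with poly I:C depended on the processing. Under DMSO, with 2 called as reported, it was 5 with upper-quartile scaling (0.803% of all genes called in either direction), 6 with median-of-ratios scaling (0.739%), 4 with a TPM minimum of 5 (7.26%), 9 with the GC correction (16%) and 0 when only the groups compared were fitted (2 residual degrees of freedom, 0.0349%). It was 6 without the 4 RES libraries (5.9%), an alternative chosen after seeing the data. With each library left out it ran from 0 to 5 (0.145% to 5.28%), and from 2 to 9 under 2-CM (0.215% to 59.1%) and 0 to 1 under RES (0.0989% to 0.308%). Under 2-CM, with 9 called as reported, it was 7 with upper-quartile scaling (44.2%), median-of-ratios scaling (43.8%) and no filter (1.61%), and 8 with FPKM (52.7%) and a pseudocount of 0.1 (45.7%). Averaged over the compounds, both scalings gave 7 in place of 8 (36.6% and 36.3%). Under RES it was 8 with the GC correction. For RES against DMSO with depc the GC correction gave 1, SP110 at 0.71, where 11% of all genes were called. Where a library was left out, the lone replicate was assumed to vary like the other groups. A call lost there may reflect the lost replication and does not show that it rested on that library.

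PARP10 under 2-CM was -0.085 with median-of-ratios scaling, and under RES it ran from -0.109 (without RES depc replicate 1) to 0.383 with a library left out. The 2-CM minus DMSO difference of PARP10 was -0.085 with FPKM, -0.503 with upper-quartile scaling and -0.752 with median-of-ratios scaling, and ran from -0.037 to 0.519 with a library left out. That of PML was -0.041, -0.457 and -0.705 with the same 3 settings, and that of PARP12 -0.085 with median-of-ratios scaling. The RES minus DMSO difference of PARP9 ran from -0.829 to 0.538 with a library left out. The causes were not tested. Under 2-CM these scalings moved the median of all genes from 0.61 to 0.18 and 0.03.

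Samples with the same replicate number deviated together in all 10 pairs of groups without RES poly I:C (correlations from 0.15 to 0.76) and oppositely in the 5 pairs with it (-0.80 to -0.31). Since no label ties the numbers, they were not taken to pair the samples, and the block kept them as labelled. A block with the RES poly I:C numbers exchanged was not fitted, so whether the samples were paired was not tested. With the replicate block 2, 9 and 0 genes were called under DMSO, 2-CM and RES, as without it, and 9 in place of 8 averaged over the compounds (2.01%, 51.8%, 0.227% and 33.3% of all genes called in either direction). No transcript share was called under any setting run, though the small number of arrangements left little room for a call.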
